A study of Sus scrofa with 6 samples.

Results

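The genes described here are those of transferrin, of iron uptake, of ferritin storage, of iron export and of the iron regulatory proteins. The list holds 10 genes, chosen by function: TF, TFRC, SLC11A2, STEAP3, FTH1, FTL, NCOA4, SLC40A1, ACO1 and IREB2. Of these, 9 were matched by their pig Ensembl identifiers among the 20731 genes of the deposited table. FTH1 (chromosome 2, 9535051 to 9537979) had no identifier in the name table used and is not analysed here. The RNA came from pig Sertoli cells at the immature stage, which line the tubules of the testis and nurse the germ cells. The group named MT comprises 3 libraries of cells kept with melatonin, the pineal hormone, at 10 nM for 36 h. The group named Control comprises 3 libraries for which no solvent, dose or time is stated. Levels are in FPKM, a measure of sequenced fragments per unit of gene length at a common library size. The labels do not say whether replicates came from separate cultures or animals. All p-values therefore rest on variation among these libraries, and that variation may be technical.

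Cells take up most of their iron as a complex with transferrin, which binds the transferrin receptor at the surface and is carried into endosomes. There a STEAP reductase turns ferric into ferrous iron, and the transporter encoded by SLC11A2 moves it into the cytosol. Surplus iron is stored in ferritin, a cage of heavy and light chains, is set free again when NCOA4 brings ferritin to lysosomes, and leaves the cell through ferroportin. When iron is scarce, the 2 iron regulatory proteins, encoded by ACO1 and IREB2, bind hairpins in mRNAs. They protect the receptor mRNA from decay and hold back the translation of ferritin and ferroportin mRNAs. In the seminiferous tubule, Sertoli cells take up iron from the blood side, and rat Sertoli cells are known to secrete transferrin towards the germ cells.

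The libraries held 19579279 to 21500665 reads, as recovered from the spacing of low FPKM values. Control 3 stood apart. Its correlation across genes with Control 1 and Control 2 was 0.938 and 0.939, against 0.993 between these other Control libraries, and mitochondrial mRNAs took 2.72% of its reads against 4.35% to 5.56% elsewhere. Its correlation with the MT libraries was 0.9523 to 0.9748, higher than with its own group. The other libraries did not separate cleanly by group either. MT 2 had 0.9866 with Control 1 and 0.9859 with Control 2, against 0.9882 with MT 1 and 0.9857 with MT 3. Control 3 was kept in the group its title gives, and whether that title is right was not tested. The values of the 7 tested genes are therefore given with and without it. Leaving out each library was planned, but Control 3 was singled out after its values were seen. Removing a library picked for lying far from its group narrows the spread within that group, so the p-values of that fit may be too small. They rest on Control 1 and Control 2 alone for the Control group. Where a gene is said to have fallen or risen without Control 3, this describes that fit only. Of 15 Sertoli markers 11 were matched and 7 reached a mean of 1 FPKM. CLU stood at 3241 ± 288 FPKM in Control, AMH at 13.4 ± 2.16 and WT1 at 10.6 ± 0.544 (SD, n = 3), while INHA, KITLG, DHH and DMRT1 were each below 0.1 FPKM on average. The summed level of the Sertoli markers was 2944 to 3460 FPKM in Control and 3329 to 3929 in MT. Nearly all of it came from CLU, at 2908.5 to 3893.6 FPKM over the libraries, so the sum says little about the other Sertoli markers. SOX9 was at 1.61 to 2.40 FPKM. Markers of peritubular myoid cells summed to 160.3 to 264.8 FPKM in Control, with Control 3 highest, and to 161.7 to 194.2 in MT, most of it from TAGLN, with MYH11 below 0.1. Summed markers of Leydig cells (3.74 to 4.87 FPKM), germ cells (1.14 to 1.53), macrophages (3.59 to 4.90 in Control and 4.82 to 5.44 in MT) and endothelium (0.152 to 0.322) were low. These sums rest on the matched markers only, 3 of 6 for Leydig cells, 4 of 9 for germ cells, 4 of 5 for macrophages and 2 of 4 for endothelium. The macrophage gene CD68, at 3.18 to 4.14 FPKM in Control and 4.50 to 5.30 in MT, did not overlap between the groups. The same held upward for 6.24% of all tested genes, and CD68 did not pass (log2 difference 0.30, limma unadjusted p 0.051, adjusted p 0.9998). AIF1, another macrophage gene, went the other way on average, at 0.439 FPKM in Control and 0.289 in MT. Its groups overlapped and it was too low to be tested, while CSF1R and CD163 were below 0.1. The part of other cell types in the results that follow was not tested, and in bulk RNA fewer cells of a type cannot be told apart from less RNA per cell.

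Within these cells the ferritin light chain was the most abundant of the 9 mRNAs per length, and the gene for transferrin itself was close to the lower end of detection. The order of level was FTL, ACO1, TFRC, IREB2, NCOA4, SLC40A1, SLC11A2, TF and STEAP3, and it was the same in all 6 libraries. FTL averaged 991.8 FPKM, rank 37 of all genes in the table, and ACO1 averaged 217.5, rank 181. TFRC averaged 60.2 FPKM (rank 772), and IREB2 averaged 19.8. NCOA4 at 14.5, SLC40A1 at 10.0 and SLC11A2 at 6.54 FPKM followed. From IREB2 down to SLC11A2, the ranges of neighbouring genes over the libraries overlapped, although their order within each library did not change. Of the 9 genes, 7 passed the filter of a mean of 1 FPKM and were tested. TF and STEAP3 did not, and neither reached 0.5 FPKM in any library of either group.

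**Figure D1:**
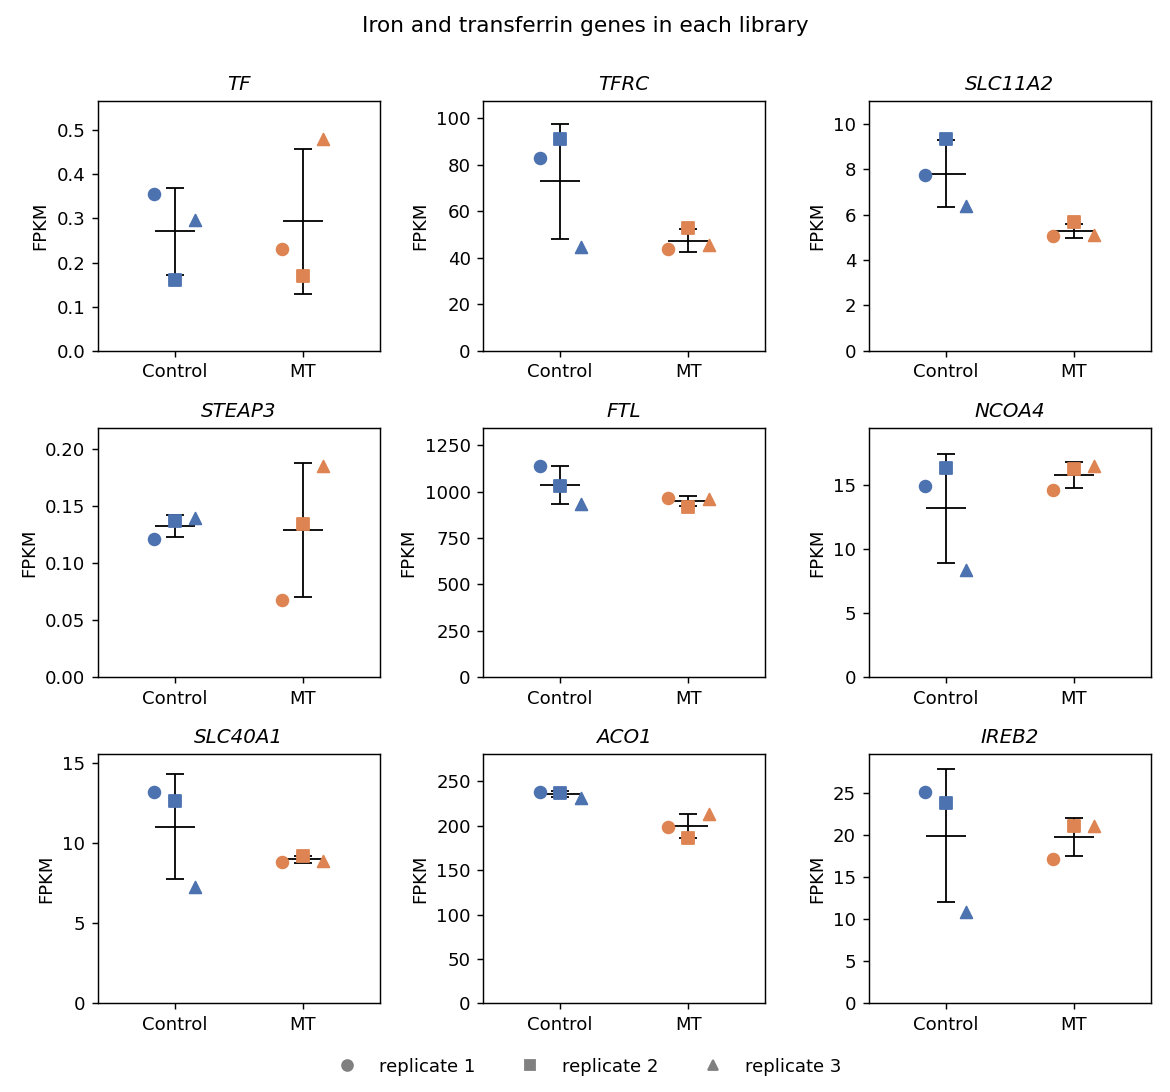
FPKM (vertical axes, linear from 0) of the 9 matched genes in each Control and MT library, with the marker shape giving the replicate number, and the horizontal bar and whiskers giving mean and SD (n = 3). Control 3 (triangles) lies far below the other Control libraries for TFRC, NCOA4, SLC40A1 and IREB2, and close to them for ACO1.

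TF encodes transferrin, the iron carrier of blood and of the tubule. It was at 0.355, 0.161 and 0.296 FPKM in Control 1 to 3 and at 0.231, 0.170 and 0.479 in MT 1 to 3. These values rest on 13 to 40 reads a library, and the groups overlapped throughout. The group means were 0.271 ± 0.099 in Control and 0.293 ± 0.164 in MT (SD, n = 3), which differ by less than either SD. RefSeq lists 2 neighbouring entries of the symbol TF on chromosome 13 of Sscrofa11.1 (74862502 to 74907059, with the synonym PICA, and 74930655 to 74970599). Which of them the deposited identifier ENSSSCG00000011640 stands for was not determined, and reads shared by such close relatives make the value uncertain.

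TFRC encodes the transferrin receptor, the route by which iron-loaded transferrin enters the cell. The gene (ENSSSCG00000011848) lies on chromosome 13 from 133976765 to 133997554. It stood at 83.1 FPKM in Control 1, 91.0 in Control 2 and 44.8 in Control 3, and at 44.0, 53.0 and 45.5 in MT 1 to 3. Control 1 and Control 2 were above every MT library, whereas Control 3 fell inside the MT range, so the groups overlapped. Over all 6 libraries the log2 difference between MT and Control was -0.55 (SE 0.26, 95% interval -1.18 to 0.08), with an adjusted p of 0.9998 in limma. Without Control 3 the receptor mRNA fell by 0.86 on the log2 scale (SE 0.10, limma adjusted p 0.015), and the MT mean was 54.5% of the mean of Control 1 and Control 2. With any other library left out the difference was -0.63 to -0.36 and did not pass.

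SLC11A2 encodes the divalent metal transporter DMT1, which carries ferrous iron out of the endosome. RefSeq has it on a sequence not placed on a chromosome (ENSSSCG00000034039 in the table). It was at 7.73, 9.31 and 6.36 FPKM in Control 1 to 3 and at 5.07, 5.65 and 5.10 in MT 1 to 3. All 3 MT libraries were below all 3 Control libraries. Over 6 libraries the log2 difference was -0.48 (SE 0.15, unadjusted p 0.015, limma adjusted p 0.83). Without Control 3 the mRNA fell by 0.60 (SE 0.10, adjusted p 0.027). STEAP3, the ferric reductase of the endosome (chromosome 15, 24736556 to 24785376), rested on 8 to 21 reads a library. Control 1 to 3 had 0.122, 0.137 and 0.140 FPKM, MT 1 to 3 had 0.068, 0.134 and 0.186, and the groups overlapped.

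Of the other members of the reductase family, STEAP1 and STEAP4 were singled out after their values were seen. STEAP2 was named by the rule of smallest p within its list. STEAP1, a heme protein that lacks the electron-donating domain of its relatives, was at 13.8 to 37.7 FPKM, and STEAP2, a reductase of iron and copper, at 6.47 to 17.3. Each was lowest in Control 3, and neither passed with or without it. STEAP4 did not exceed 0.024 FPKM in any library.

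FTL encodes the ferritin light chain, which helps form the iron core inside the ferritin cage. The gene (ENSSSCG00000003153) lies on chromosome 6 from 54231121 to 54232756. It was at 1140.2, 1031.1 and 934.8 FPKM in Control 1 to 3 and at 964.2, 917.9 and 963.0 in MT 1 to 3. Control 1 and Control 2 were the highest, and Control 3 lay within the MT range. The log2 difference was -0.12 (SE 0.11, 95% interval -0.39 to 0.14, limma adjusted p 0.9998), and it was -0.19 without Control 3 (SE 0.07, adjusted p 0.11). Ferritin genes have processed copies in mammalian genomes that can share their reads, so the level is uncertain.

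NCOA4 encodes the receptor that delivers ferritin to lysosomes for iron release. The gene (ENSSSCG00000010399) lies on chromosome 14 from 90505614 to 90531302. It was at 14.9 and 16.3 FPKM in Control 1 and Control 2, at 8.35 in Control 3, and at 14.6, 16.3 and 16.5 in MT 1 to 3. The 5 libraries other than Control 3 lay close together, and Control 3 was at 53.4% of the mean of Control 1 and Control 2. Over 6 libraries the log2 difference was 0.29 (SE 0.24, limma adjusted p 0.9998). Without Control 3 it was 0.015, with a 95% interval of -0.18 to 0.21 (adjusted p 0.91). HERC2, the ubiquitin ligase that degrades NCOA4 in human cells, had a log2 difference of 0.14 over 6 libraries (adjusted p 0.9998) and 0.22 without Control 3 (adjusted p 0.13).

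SLC40A1 encodes ferroportin, the iron exporter of vertebrate cells. The gene (ENSSSCG00000027157) lies on chromosome 15 from 94140635 to 94161793. It was at 13.2, 12.6 and 7.25 FPKM in Control 1 to 3 and at 8.83, 9.21 and 8.89 in MT 1 to 3. Control 3 was below all MT libraries, and Control 1 and Control 2 above them. Over 6 libraries the log2 difference was -0.23 (SE 0.21, 95% interval -0.74 to 0.28, limma adjusted p 0.9998). Without Control 3 the exporter mRNA fell by 0.48 (SE 0.07, adjusted p 0.024), and the MT mean was 69.6% of the mean of Control 1 and Control 2.

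ACO1 and IREB2 encode the iron regulatory proteins. The ACO1 product doubles as cytosolic aconitase when it holds an iron-sulfur cluster, whereas the IREB2 product is degraded when iron is plentiful. ACO1 (ENSSSCG00000023807, chromosome 10, 33937833 to 34001895) was at 238.1, 236.7 and 231.5 FPKM in Control 1 to 3 and at 198.6, 186.6 and 213.3 in MT 1 to 3. All MT libraries were below all Control libraries, and Control 3 lay beside its own group. The log2 difference was -0.24 over 6 libraries (SE 0.10, unadjusted p 0.045, limma adjusted p 0.9998) and -0.25 without Control 3 (SE 0.07, adjusted p 0.065), so it did not pass in either fit.

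IREB2 (ENSSSCG00000001756, chromosome 7, 47481539 to 47529199) was at 25.1, 23.8 and 10.8 FPKM in Control 1 to 3 and at 17.2, 21.0 and 21.1 in MT 1 to 3. Control 3 was the lowest of all libraries and Control 1 the highest, so the MT values lay inside the Control range. The log2 difference was 0.07 over 6 libraries (SE 0.30, 95% interval -0.66 to 0.79) and changed sign to -0.30 without Control 3 (SE 0.10, limma adjusted p 0.089).

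**Figure D2:**
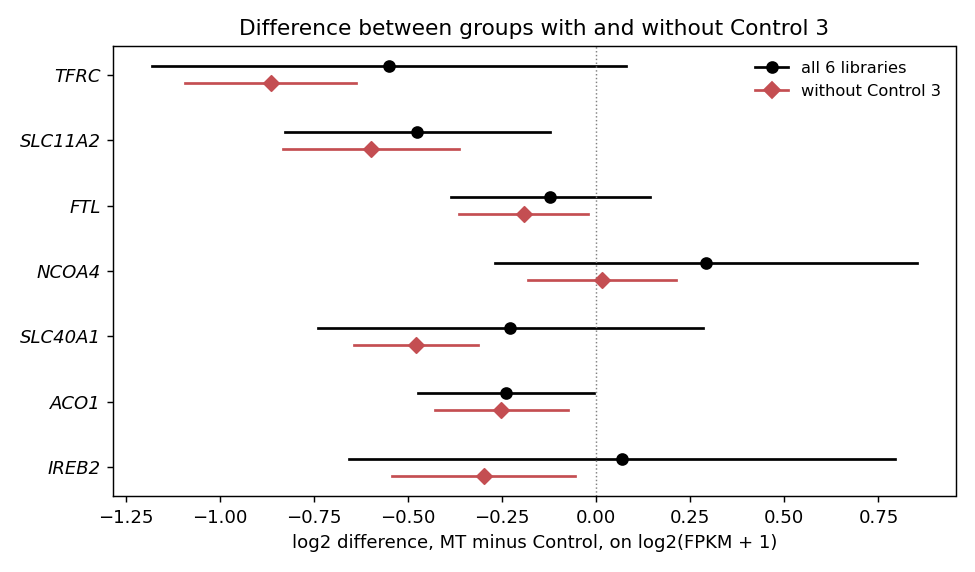
Log2 differences between MT and Control on log2(FPKM + 1) for the 7 tested genes (horizontal axis), with 95% intervals from limma, over all 6 libraries (circles) and without Control 3 (diamonds). The intervals shorten without Control 3, and those of TFRC, SLC11A2 and SLC40A1 then lie farthest below 0.

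As a list, 5 of the 7 tested genes had a negative log2 difference over 6 libraries, with a median of -0.23. Over all 10950 tested genes 4822 were lower (44.0%) and the median was 0.02. None of the 7 passed an adjusted p of 0.05 in limma, as was so for all tested genes (0.0% called, smallest adjusted p 0.099). Unadjusted, 2 of the 7 (SLC11A2 and ACO1) had a p under 0.05 and were lower in MT, against 2.39% of all tested genes, and 517 genes in all had such a p. The same 2 genes were those whose MT values all lay below the Control values, against 4.99% of all tested genes. Without Control 3, 3 of the 7 passed and were lower (TFRC, SLC11A2 and SLC40A1), against 6.62% of all tested genes, and none passed upward. The genes were chosen with earlier results of these data known, so these shares describe the list and test nothing.

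Control 3 was below both other Control libraries in all 7 tested genes, and in 5289 of the 10950 tested genes (48.3%). Its median log2 distance from the mean of Control 1 and Control 2 was -0.75 over the 7 genes and -0.02 over all tested genes. The distance was -1.10 for IREB2, -0.94 for TFRC, -0.83 for NCOA4 and -0.75 for SLC40A1. It was -0.37 for SLC11A2, -0.21 for FTL and -0.04 for ACO1. Control 3 thus shared the MT level of TFRC and FTL, lay between the groups for SLC11A2, and was below every MT library for NCOA4, SLC40A1 and IREB2.

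**Figure D3:**
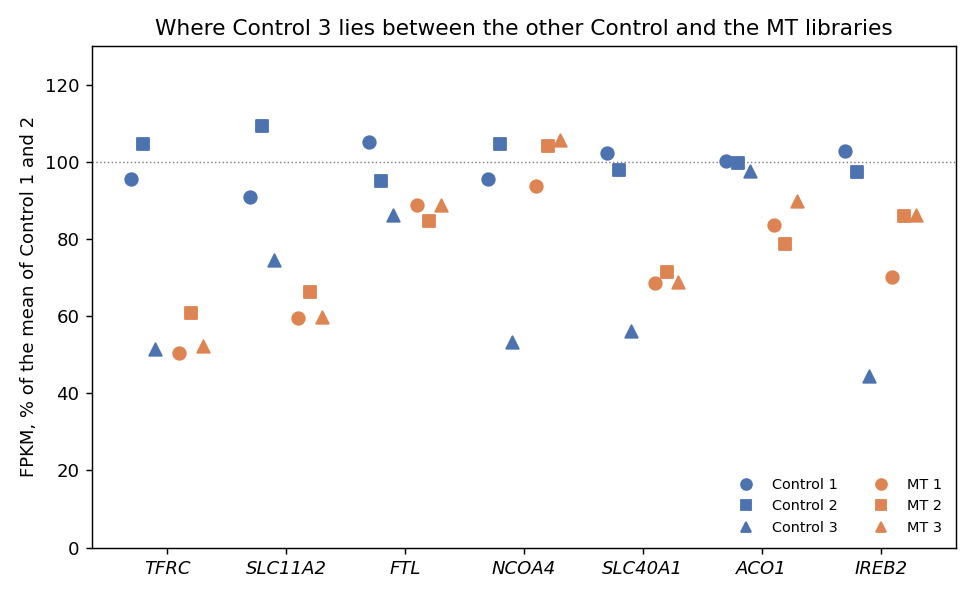
FPKM of each library as a percentage of the mean of Control 1 and Control 2 (vertical axis, linear from 0) for the 7 tested genes, with colour for the group and shape for the replicate number. Control 3 ranges from 44.4% for IREB2 to 97.5% for ACO1, and the MT libraries are all below Control 1 and Control 2 for TFRC, SLC11A2, FTL, SLC40A1, ACO1 and IREB2.

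Ratios of 2 genes within a library were compared next. The scaling of the library cancels out of a ratio of FPKM, and nearly so after 1 is added to each value for the test. The level of TFRC was 6.30, 7.21 and 6.19 times that of SLC40A1 in Control 1 to 3 and 4.98, 5.75 and 5.11 times in MT 1 to 3. All MT ratios were below all Control ratios, Control 3 included. The log2 ratio on FPKM + 1 was 2.60 ± 0.14 in Control and 2.27 ± 0.11 in MT (SD, n = 3), and the exact two-sided permutation p was 0.10, the smallest that 3 against 3 libraries allow. The other 3 ratios overlapped between the groups. ACO1 stood at 9.48, 9.96 and 21.4 times IREB2 in Control and at 11.6, 8.87 and 10.1 times in MT (exact permutation p 0.70), with Control 3 far above the rest, and without that library the log2 difference turned from -0.31 to 0.05. TFRC relative to FTL was 0.073, 0.088 and 0.048 in Control and 0.046, 0.058 and 0.047 in MT, and NCOA4 relative to FTL was 0.0131, 0.0158 and 0.0089 in Control and 0.0152, 0.0177 and 0.0172 in MT (exact permutation p 0.20 each). Adjusted over the 4 ratios, the lowest exact permutation p was 0.27.

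The 3 genes with a symbol whose log2(FPKM + 1) followed TFRC most closely over the 6 libraries were KIF4A, a chromosome-bound kinesin of dividing cells (r = 0.9995), HNRNPH1, a splicing regulator (r = 0.9992), and NUP153, a nuclear pore protein (r = 0.995). KIF4A was at 11.02, 11.85 and 6.60 FPKM in Control and at 6.67, 7.68 and 6.78 in MT. In all, 532 tested genes had an r of at least 0.9 with TFRC. These values share the same 6 libraries and the low Control 3, and they are given as a description only.

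The other genes of the pathway were taken from 9 lists with 112 distinct genes, of which 95 were matched and 81 tested. Over 6 libraries 40 of the 81 were higher and 41 lower in MT, with a median log2 difference of -0.005, and 0 passed in limma, while 7 of the 81 had an unadjusted p under 0.05, as had 517 of the 10950. The groups did not overlap in 3 genes higher in MT (6.24% of all tested genes did so) and in 8 lower ones (4.99% of all tested genes). Without Control 3, 3 of the 81 rose (4.28% of all tested genes did so) and 8 fell (6.62% of all tested genes). Where a pair of values follows a gene, they are the log2 differences over 6 libraries and without Control 3, in this order. The genes that rose in the fit without Control 3 were MELTF, ALAS1 and GPX4. Those that fell in that fit were CP, HMOX1, HSCB, ABCB10, LPCAT3, GCLM, ACSL4 and CISD2.

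Among the 10 tested genes of iron and heme uptake, 7 were higher and 3 lower, with a median of 0.07 (6 and 4 without Control 3). MELTF, melanotransferrin, a relative of transferrin held at the cell surface, was at 8.57, 7.54 and 11.06 FPKM in Control and at 12.4, 10.5 and 13.9 in MT. It had a log2 difference of 0.41 over 6 libraries (unadjusted p 0.048, adjusted p 0.9998) and rose by 0.54 without Control 3 (limma adjusted p 0.041). The zinc and iron importers SLC39A8 and SLC39A14 had all MT values below all Control values, with pairs of -0.37 and -0.36 for the first and -0.25 and -0.29 for the second, and passed in neither fit (adjusted p 0.066 and 0.055 without Control 3). LCN2, which carries iron-binding siderophores (0.57 and 0.57), SLC48A1, a heme transporter (0.16 and 0.25), and STEAP2 (-0.25 and -0.66) did not pass either. TFR2, the other transferrin receptor, did not exceed 0.08 FPKM in any library.

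In transferrin receptor traffic, 7 of 11 tested genes were higher and 4 lower over 6 libraries (median 0.03), and 2 were higher and 9 lower without Control 3 (median -0.15). None passed in either fit. Signs turned without Control 3 for VPS35, a retromer subunit (0.12 and -0.17), for PICALM, a clathrin assembly protein (0.07 and -0.17), and for the endocytic adaptor EPN1 (-0.06 and 0.20). They did not for RAB12, which directs the receptor to lysosomes in mouse cells (-0.15 and -0.13), or for the clathrin heavy chain CLTC (-0.06 and -0.24). Control 3 was below both other Control libraries in 8 of the 11.

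Of 8 tested genes of iron storage, iron chaperones and heme breakdown, 5 were higher and 3 lower (median 0.04), and 4 were higher and 4 lower without Control 3. HMOX1, the inducible heme oxygenase that frees iron from heme, was at 5.79, 6.81 and 7.05 FPKM in Control and at 4.10, 4.25 and 3.09 in MT, with no overlap and with Control 3 highest. Its log2 difference was -0.66 (SE 0.14, unadjusted p 0.0028, adjusted p 0.45), and it fell by 0.61 without Control 3 (limma adjusted p 0.040). The constitutive enzyme HMOX2 (0.08 and 0.18) and the iron chaperone PCBP2 (-0.01 and 0.16) passed in neither fit. The biliverdin reductases BLVRA (0.12 and 0.14) and BLVRB (-0.53 and -0.21) also did not overlap between groups and passed in neither fit, and BLVRB was at 89.5 FPKM in Control 3 against 44.8 and 45.6 in the other Control libraries.

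Of export and systemic control, 3 genes were tested. CP, the ferroxidase ceruloplasmin that works beside ferroportin, was at 124.8, 107.5 and 55.7 FPKM in Control 1 to 3 and at 67.2, 70.8 and 76.6 in MT 1 to 3. Its log2 difference was -0.34 over 6 libraries (adjusted p 0.9998), and it fell by 0.69 without Control 3 (limma adjusted p 0.020). As with SLC40A1, Control 3 was below all MT libraries. The heme exporter FLVCR1 (-0.13 and -0.33) did not pass in either fit. Nor did NEO1, a co-receptor of the hepcidin pathway in liver (0.20 and 0.17), although its groups did not overlap. HAMP, the gene of hepcidin, reached at most 0.294 FPKM.

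Heme synthesis had 4 of 8 tested genes higher and 4 lower, with a median of -0.01 (5 and 3 without Control 3). ALAS1, the rate-limiting enzyme of heme synthesis outside red cells, was at 29.3, 29.4 and 36.4 FPKM in Control and at 55.3, 44.9 and 61.1 in MT, with no overlap. Its log2 difference was 0.74 (SE 0.15, unadjusted p 0.0021, adjusted p 0.42), and it rose by 0.84 without Control 3 (limma adjusted p 0.025). The later enzymes ALAD (0.17 and 0.34), UROS (0.10 and 0.08), FECH (-0.08 and -0.01) and CPOX (-0.05 and -0.14) did not pass in either fit.

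In mitochondrial iron and iron-sulfur assembly, 8 of 20 tested genes were higher and 12 lower (median -0.01), and 9 and 11 without Control 3. HSCB, the co-chaperone that hands new clusters on, was at 23.4, 24.0 and 23.3 FPKM in Control and at 19.0, 18.3 and 19.2 in MT, with no overlap. Its log2 difference was -0.31 (SE 0.09, adjusted p 0.82), and it fell by 0.32 without Control 3 (limma adjusted p 0.037). The cluster scaffold ISCU (0.33 and 0.31), its partner LYRM4 (0.18 and 0.10), ISCA2 (0.09 and -0.04) and CIAPIN1 of the cytosolic machinery (-0.24 and -0.16) passed in neither fit. Nor did the mitochondrial iron importer SLC25A28 (-0.25 and -0.09), although its groups did not overlap. ABCB10, a mitochondrial transporter singled out after its values were seen, had -0.19 over 6 libraries with overlapping groups (adjusted p 0.9998) and fell by 0.36 without Control 3 (adjusted p 0.042).

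Of other mRNAs known to carry an iron responsive element, 4 were tested, with 4 positive differences over 6 libraries, and 3 positive and 1 negative without Control 3. Among them were CDC14A (0.24 and 0.03), EPAS1 (0.06 and 0.16) and CDC42BPA (0.01 and -0.18). None passed in either fit. The hypoxia response had 3 of 8 tested genes higher and 5 lower, with a median of -0.06, the same tally without Control 3, and 0 passing in either fit. Its named genes were VEGFA (0.16 and 0.19), EGLN3 (0.03 and -0.05), EGLN1 (-0.14 and -0.22), ADM (-0.15 and -0.21) and NDRG1 (-0.09 and 0.02).

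In the list of ferroptosis and lipid peroxide control, 8 of 10 tested genes were lower over 6 libraries, with a median of -0.21, and 6 of 10 without Control 3. LPCAT3, which loads polyunsaturated fatty acids into phospholipids, was at 19.7, 18.6 and 15.2 FPKM in Control and at 14.5, 12.5 and 13.7 in MT, with no overlap. It had -0.36 over 6 libraries (adjusted p 0.93) and fell by 0.47 without Control 3 (limma adjusted p 0.031). GCLM, the modifier subunit of the first enzyme of glutathione synthesis, had -0.44 over 6 libraries (adjusted p 0.9998), with Control 3 at 14.9 FPKM inside the MT range of 13.0 to 16.3, and fell by 0.65 without Control 3 (adjusted p 0.025). A further pair of genes was singled out after the values were seen. ACSL4, which activates arachidonic acid, had -0.33 over 6 libraries (adjusted p 0.9998) and fell by 0.76 without Control 3 (adjusted p 0.017). CISD2, an iron-sulfur protein of the endoplasmic reticulum, had -0.20 (adjusted p 0.9998) and fell by 0.52 without Control 3 (adjusted p 0.033). Control 3 was below every MT library for both. GPX4, the lipid peroxidase that holds back ferroptosis, had 0.14 over 6 libraries (adjusted p 0.9998) and rose by 0.32 without Control 3 (adjusted p 0.045), with 76.1 FPKM in Control 3 against 60.7 to 68.0 in MT. The quinone reductase NQO1 (-0.28 and -0.32, no overlap, unadjusted p 0.049 over 6 libraries) and the cystine transporter SLC7A11 (0.31 and 0.06) passed in neither fit.

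**Figure D4:**
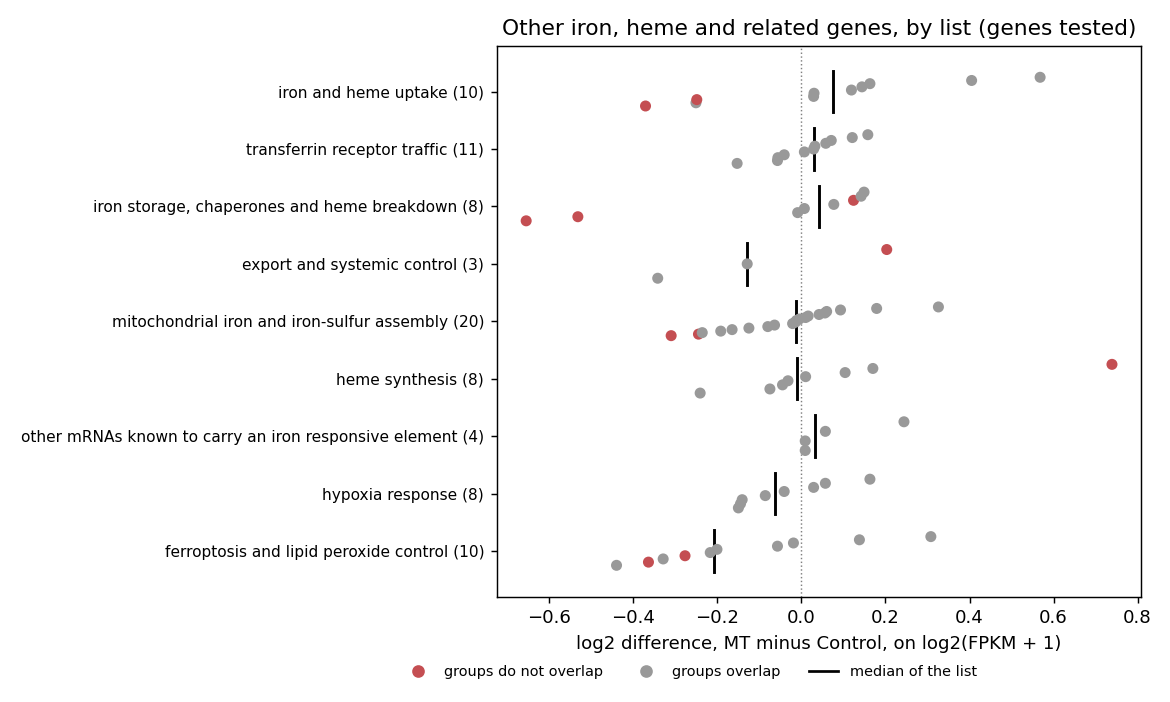
Log2 difference between MT and Control on log2(FPKM + 1) over all 6 libraries (horizontal axis) for each tested gene of the 9 lists, with the number of tested genes in brackets, black bars for the list medians, and red for genes whose groups do not overlap. ALAS1 at 0.74 and HMOX1 at -0.66 are farthest from 0 among the genes whose groups do not overlap.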

How the data were processed

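Titles gave each library's group and replicate number. The deposited values are FPKM per gene, computed by the authors separately for each library. Per the submitters' processing notes, HISAT2, featureCounts, Subread, bcl2fastq and the Sscrofa11.1 build were used. Strand setting, filters and annotation release: not given in the sources used here. As each value depends on the sum of each library, changes of abundant genes shift all others.

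Of 20731 genes, 13173 (63.5%) had a symbol. Positions are RefSeq's for Sscrofa11.1, by symbol. Whole reads were recovered from the steps of 2013 low genes, and all 10950 tested genes (100.0%) lay within 0.01 of whole reads. A recovered number may be a fraction of the true one. The chi-square per degree of freedom between libraries of a group was 6.34 to 149, so none duplicated another of its own group. Pairs across the groups were not compared in this way.

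Genes averaging 1 FPKM or more were tested with limma 3.58.1 in R 4.3.3 on log2(FPKM + 1) (variance trend, group as the only term, two-sided, Benjamini-Hochberg over 10950 genes, threshold 0.05). This scale understates changes of low genes. The fits were tested on simulated data with 200 changed genes. No simulated library stood apart as Control 3 does, so the simulation does not cover that feature of the data. Ratios were compared by an exact permutation test. Of 5 planned ratios 3 needed FTH1, and ratios to FTL were added in place of 2 of them. Named genes were the 10 members, up to 3 per direction of each list by smallest p (46 genes) and the 3 closest to TFRC. Some genes that this rule names are not reported here. Members and lists were chosen with earlier results of these data known. Alternatives fixed first were other pseudocounts (0.1, 0.01), filters (none, 5 FPKM), scalings, no variance trend, limma's sample weights, the replicate number as a block, voom on recovered reads and leaving out each library. Fits combining the removal of Control 3 with another scaling or voom were added after seeing the data. Python 3.11.15 with pandas 2.3.3, numpy 2.4.6, scipy 1.17.1 and matplotlib 3.10.9 was used for tables and plots.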

Additional observations from a re-analysis of the deposited data

How the results depend on the processing

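Over all 6 libraries, 0 genes passed in limma under each of the 10 other settings except sample weights (10950 tested, 20731 with no filter and 7190 at a mean of at least 5 FPKM), with 517 of 10950 at an unadjusted p under 0.05 (470 in limma voom on recovered reads). Sample weights gave Control 3 a weight of 0.052 and passed 6309 of the 10950 genes and 55 of the 81 genes of the wider lists. All 7 tested genes of the main list were then lower in MT. TFRC, SLC11A2, SLC40A1, ACO1 and IREB2 passed (limma adjusted p 0.00017, 0.00051, 0.00077, 0.0029 and 0.0071), as did most genes in this fit, and FTL and NCOA4 did not. The weights turned NCOA4 to -0.074 and IREB2 to -0.38. Leaving out 1 library at a time gave 0 to 1194 genes and 0 to 11 genes of the wider lists, all of them without Control 3. In the fits added after seeing the data, without Control 3, quantile normalization passed 1333 genes and 12 of the lists, with IREB2 at -0.30, and voom passed 2431 and 16, with IREB2 at -0.31. Voom there gave IREB2 an adjusted p of 0.047 and ACO1 0.035, and quantile normalization gave FTL 0.035 and ACO1 0.041, so the FTL and ACO1 calls depend on the setting, and among the fits without Control 3 only voom called IREB2 (0.087 with quantile normalization). IREB2 ranged from -0.30 to 0.27 with 1 library left out. TFRC ranged from -0.86 to -0.36, SLC11A2 from -0.60 to -0.36, SLC40A1 from -0.48 to -0.09, ACO1 from -0.29 to -0.19, FTL from -0.19 to -0.05 and NCOA4 from 0.015 to 0.46. With the replicate block 0 genes passed. Libraries of the same number deviated together from their group means in 2 of 3 pairs (r of -0.44, 0.63 and 0.34). With so few libraries, and Control 3 far from its group, this cannot decide whether the numbers pair the libraries. With 1 library left out, the log2 ratio difference ranged from -0.39 to -0.25 for TFRC to SLC40A1, from -0.50 to 0.05 for ACO1 to IREB2, from -0.67 to -0.24 for TFRC to FTL and from 0.21 to 0.58 for NCOA4 to FTL. Of these, 0.05, -0.67 and 0.21 were the values without Control 3. The counts for TF and STEAP3, at 8 to 40 reads a library, limit what could be detected for these genes.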
